A study of Mus musculus with 9 samples.

Results

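The genes examined were the chromatin remodellers, histone demethylases and histone deacetylases of mouse thymocytes. Also included were the BRD and SETD gene families, with readers and writers of histone marks, and the ARID family, with DNA-binding proteins. Members were taken by gene symbol from the Hdac, Sirt, Kdm, Smarc, Chd, Arid, Brd, Setd and Setdb families, which gave 80 of the 18193 genes named on the array. Each gene was read by 1 probe set, the brightest of those that named that gene alone, and 75 of the 80 were bright enough to be tested among 11644 genes. No probe set of Chd5, Hdac9, Kdm4d, Smarca1 or Smarcd3 reached the median signal of its array on 2 or more arrays, and these 5 genes were not tested.

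RNA from 9 C57Bl/6 mice, 1 mouse per array, was measured on Affymetrix oligonucleotide arrays. The tumour group held unsorted thymic tumours of 4 R26NC/NC CD4Cre+ mice aged 28, 26, 23 and 21 weeks (tumours 1 to 4), with at least 95% CD4+CD8+ double-positive (DP) cells. Pre-transformed samples were DP thymocytes, sorted to over 98% purity, of 3 R26NC/NC CD4Cre+ mice aged 6 weeks. The control group held DP thymocytes sorted in the same way from 2 R26NC/NC CD4Cre- mice aged 6 weeks. All 9 mice thus carried the R26NC allele, from which Cre releases active β-catenin, the effector of canonical Wnt signalling, and Cre under Cd4 control acts from the DP stage. Cre and active β-catenin came together in every mouse and cannot be told apart. Tumours were older, unsorted and labelled from 2.5 µg of RNA by the standard protocol, while sorted cells were labelled from 0.1 µg with an amplification kit, so that tumour state cannot be told apart from age, sorting or labelling.

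Chromatin regulators act on the packaging of DNA in nucleosomes. Deacetylases and demethylases erase marks from histone tails, SETD enzymes write methyl marks, bromodomain proteins of the BET family read acetylated histones, and the SWI/SNF, ISWI and CHD families use ATP to slide or evict nucleosomes. In thymocytes these proteins take part in the opening and silencing of lineage genes as cells pass the DP stage, and several SWI/SNF and CHD subunits are needed for T-cell development.

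Most of these genes differed between tumours and sorted thymocytes, and 1 differed between pre-transformed and control cells. In tumours against pre-transformed cells, 12 of the 75 tested members rose and 38 fell at an adjusted p under 0.05 (limma). That is 66.7% of the members, beside 54.9% of all genes tested. The fallers made up 50.7% of members, beside 31% of all genes, and the risers 16%, beside 23.9%. The median log2 change was -0.72 over the members and -0.12 over all genes. With a 2-fold minimum on the change, 36% of members were called, near the 37.1% of all genes. These were 2 higher and 25 lower, so that 7.41% of called members were higher, beside 42.7% of all genes called. A group whose mean lay under the 65th percentile of its arrays (28.5 to 44.6) is called dim, and a fold against it is given as a lower bound, with that percentile in place of lower values. The 4 tumour arrays lay wholly above or wholly below the 3 pre-transformed arrays for 51 of the 75 members, and for 57% of all genes.

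How the arrays are scaled moved the split between rises and falls. On the deposited scale 24% of the called members were higher in tumours. With each array centred on the median of all its probe sets, 4 members were higher and 46 lower (8% higher). Among all genes called, 43.6% were higher on the deposited scale and 30.5% with this centring. Centring on the probe sets kept, or on the genes tested, gave 14 higher and 32 lower (30.4%) or 15 higher and 33 lower (31.2%), where 57% and 57.3% of all genes called were higher. Under these 3 centrings the median of all genes was -0.38, 0.17 and 0.17, and the members' median moved with it, since centring shifts every gene of an array alike. A total of 32 members were called lower and 4 higher (Chd1l, Chd7, Kdm7a and Setd6) under all 5 scalings run, quantile normalization included. The same count over all genes is not given here, so these members cannot be set beside it.

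**Figure D1:**
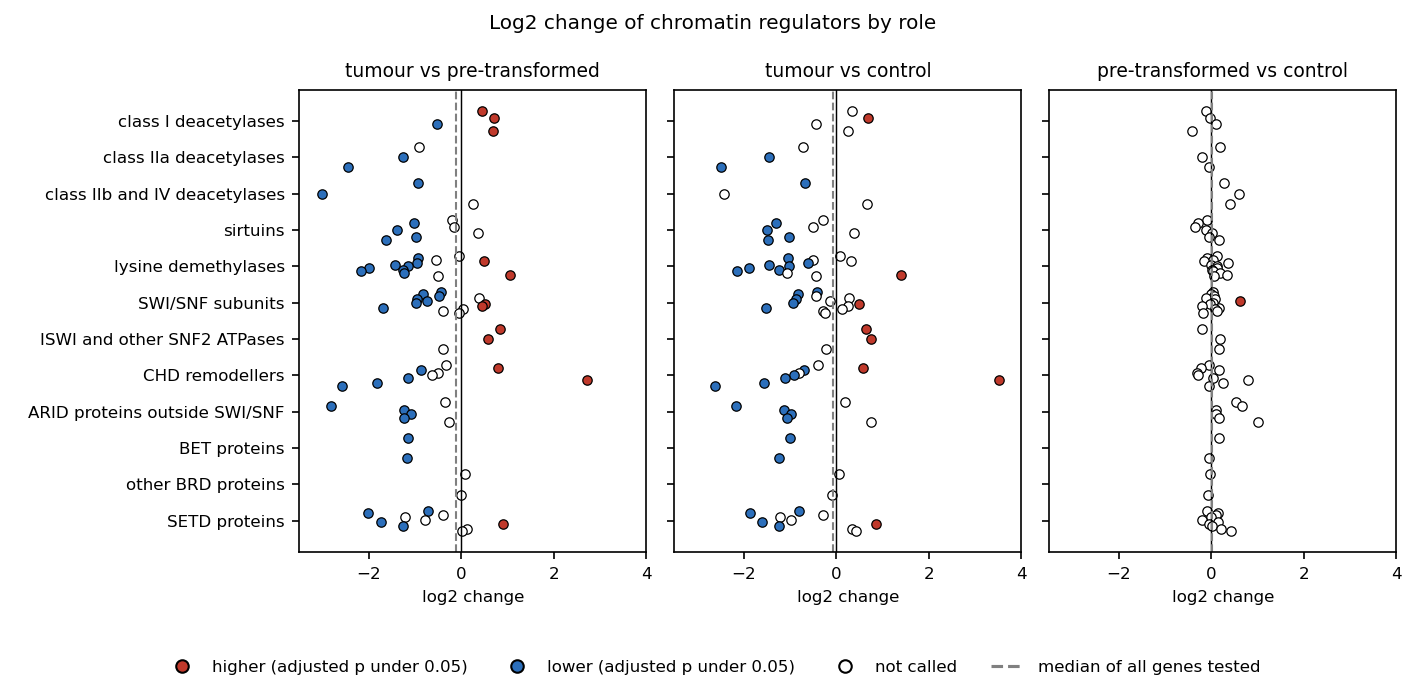
Log2 change (horizontal axis) of each of the 75 tested genes, by role (rows), for tumour vs pre-transformed, tumour vs control and pre-transformed vs control. Points are genes, filled where the adjusted p was under 0.05 (red higher, blue lower), and the dashed line is the median of all 11644 genes; tumours give 12 red and 38 blue points against pre-transformed cells, while pre-transformed cells give 1 red point against controls.

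The tumours also differed from sorted cells in other measures, whose part in the results was not tested unless a value is given. Of 10 DP thymocyte markers measured, 9 fell in tumours against pre-transformed cells, and their summed signal was 10861 to 15007 in tumours, 27267 to 29262 in pre-transformed cells and 25933 to 27570 in controls. Summed signals of 10 myeloid markers were 3417.4, 169.6, 3672.9 and 3303.6 in tumours 1 to 4, against 172.6 to 308.4 in pre-transformed cells and 151.1 to 201.6 in controls. Those of 5 B-cell markers, mostly Ighm, were 247.9 to 5518 in tumours, 1774 to 2057 in pre-transformed cells and 2801 to 3046 in controls. Sums of 3 erythroid markers were 26.9 to 69.5 in tumours, 14.4 to 17.5 in pre-transformed cells and 3.1 to 10.8 in controls. Those of 9 stromal, epithelial and endothelial markers were 193.9 to 444.9 in tumours, 171.7 to 231.8 in pre-transformed cells and 161.5 to 200.1 in controls. No marker was at 0, though the DP marker Ptcra was at 2.7 to 6.8 in tumours, against 213.6 to 250.6 in pre-transformed cells and 318.2 to 371.9 in controls. With tumour 2, whose myeloid sum lay in the range of sorted cells, as the only tumour, 13 members were higher and 46 lower than in pre-transformed cells (78.7% called, beside 60.9% of all genes), the lone array being assumed to vary like the other groups. The β-actin 3′ over 5′ log2 ratio averaged 0.81 in tumours (SD 0.28, n = 4) and 0.26 in sorted cells (SD 0.05, n = 5; two-sided exact permutation p = 0.00794, the smallest the 126 splits allow), and that of Gapdh averaged -0.31 in tumours (SD 0.19) and -0.20 in sorted cells (SD 0.12; exact permutation p = 0.317).

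The class I deacetylases, among them Hdac1, Hdac2 and Hdac3 of corepressor complexes, had 3 of 4 members higher and 1 lower in tumours on the deposited scale. With arrays centred on all probe sets 0 were higher and 1 lower. On the deposited scale 100% of these 4 genes were called, beside 54.9% of all genes. Hdac2, a subunit of the Sin3, NuRD and CoREST complexes, had signals of 1149.8, 1469.6, 1346.8 and 1614.5 in tumours 1 to 4, against 853.2, 839.7 and 838.1 in pre-transformed cells and 841 and 875 in controls. All 4 tumours lay above all 5 sorted arrays, and the sorted arrays were nearly level (log2 change 0.71 ± 0.13 SE, adjusted p = 0.00138 against pre-transformed cells). Hdac1, its close paralogue, had signals of 1147.6, 1459.6, 1604.7 and 1338.7 in tumours 1 to 4, against 954.9, 1163.7 and 923.2 in pre-transformed cells and 1080.5 and 1109.4 in controls. Tumour 1 lay within the range of the pre-transformed arrays and the other 3 tumours above it (log2 change 0.45 ± 0.14 SE, adjusted p = 0.0235). Hdac8, which deacetylates the cohesin subunit Smc3, had signals of 75.4, 70.7, 54.3 and 50.4 in tumours 1 to 4, against 31.8, 48.7 and 37.3 in pre-transformed cells and 57 and 47.1 in controls, at least 1.35-fold higher in tumours than in pre-transformed cells, where it was dim (adjusted p = 0.043), with tumours and controls overlapping. Hdac3, the enzyme of the NCoR and SMRT corepressor complexes, fell, with signals of 258.3, 270.9, 308.4 and 213.6 in tumours 1 to 4, against 374.7, 377.4 and 377.1 in pre-transformed cells and 353.1 and 353.4 in controls. Its tumours lay below all sorted arrays (log2 change -0.53 ± 0.15 SE, adjusted p = 0.0138). With arrays centred on all probe sets, none of the 3 rises was called (0.46 for Hdac2, 0.19 for Hdac1 and 0.42 for Hdac8, adjusted p = 0.064, 0.424 and 0.273), and with centring on kept probe sets or on genes tested the fall of Hdac3 was not called. The Hdac1 call was lost without pre-transformed 1 or 3 and the Hdac8 call without tumour 1 or 2, either control, or pre-transformed 1 or 3 (adjusted p up to 0.0967 and 0.157), while those of Hdac2 and Hdac3 held with each array left out.

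Class IIa deacetylases, which shuttle between nucleus and cytoplasm, had 2 of 3 tested members lower in tumours and none higher on the deposited scale, and all 3 lower with arrays centred on all probe sets. The fallers on the deposited scale were 66.7% of these 3 genes, beside 31% of all genes. Hdac7, a class IIa enzyme abundant in DP thymocytes that represses Nr4a1 until T-cell receptor signals export it from the nucleus, had signals of 169, 288.7, 664.3 and 337.8 in tumours 1 to 4, against 1989.4, 1536.4 and 1800.3 in pre-transformed cells and 1937.3 and 1701.1 in controls. Every tumour lay below every sorted array, tumour 3 nearest to them, and pre-transformed and control arrays overlapped (log2 change -2.45 ± 0.36 SE, adjusted p = 0.000363 against pre-transformed cells). Its other kept probe set gave -0.51 (adjusted p over probe sets = 0.161). Hdac5 had signals of 62.3, 65.6, 53.6 and 50.5 in tumours 1 to 4, against 140.4, 123.9 and 148.6 in pre-transformed cells and 162.1 and 154.6 in controls. Its tumour arrays lay below all 5 sorted ones (log2 change -1.25 ± 0.18 SE, adjusted p = 0.000305). Hdac4 was dim in tumours (15.6 to 43.3, against 45.4 to 61.9 in pre-transformed cells and 46.2 to 50.7 in controls) and missed the threshold (at least 1.41-fold lower than in pre-transformed cells, adjusted p = 0.0504). A second Hdac4 probe set, also dim in tumours, was called at least 1.26-fold lower there than in pre-transformed cells (adjusted p over probe sets = 0.025). Of the 3 class IIb and IV enzymes 2 were called lower (66.7%, beside 31% of all genes). Hdac10, a polyamine deacetylase, had signals of 110.4, 105.2, 171.8 and 113.8 in tumours 1 to 4, against 241.6, 223.3 and 243.2 in pre-transformed cells and 226 and 169.4 in controls; tumour 3 lay just above the lower control and below the pre-transformed arrays (log2 change -0.94 ± 0.21 SE, adjusted p = 0.00357). Hdac11, the class IV enzyme, was called lower as well (adjusted p = 0.0143) but was dim on all 9 arrays, so that no fold is given. Hdac6, a cytoplasmic tubulin deacetylase, did not pass (log2 change 0.26, adjusted p = 0.39).

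Sirtuins, the NAD-dependent deacetylases, had 4 of 7 members lower and none higher in tumours on the deposited scale, with the same 4 lower under the other scalings. The share called was 57.1%, near the 54.9% of all genes. Sirt7, a nucleolar sirtuin that acts on histone H3, had signals of 411.8, 505.3, 669.9 and 455.9 in tumours 1 to 4, against 1512.5, 1612.7 and 1536.5 in pre-transformed cells and 1435.7 and 1349.3 in controls. The 4 tumours and the 5 sorted arrays did not overlap, and both sorted groups were tight (log2 change -1.63 ± 0.16 SE, adjusted p = 4.41e-05). Sirt2, a mainly cytoplasmic enzyme, had signals of 137, 113.3, 254 and 160.7 in tumours 1 to 4, against 375.2, 268.4 and 331.6 in pre-transformed cells and 400.9 and 382.2 in controls, and tumour 3 came close to pre-transformed 2 without reaching it (log2 change -1.02 ± 0.26 SE, adjusted p = 0.0074). Sirt6, a chromatin-bound enzyme, and Sirt4, a mitochondrial one, fell to dim levels in tumours and were at least 1.75-fold and 1.23-fold lower than in pre-transformed cells (adjusted p = 0.00346 and 0.00487). Sirt1, the best known nuclear sirtuin, had signals of 244.8, 330.2, 253.5 and 380.8 in tumours 1 to 4, against 286.2, 379.9 and 366.8 in pre-transformed cells and 335.7 and 393 in controls; the groups overlapped (log2 change -0.20, adjusted p = 0.403). The mitochondrial Sirt3 and Sirt5 did not pass (log2 changes -0.15 and 0.37, adjusted p = 0.628 and 0.196), although Sirt5 was called higher with arrays centred on kept probe sets or on genes tested and with quantile normalization.

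Lysine demethylases had 8 of 13 tested members lower and 2 higher on the deposited scale (10 lower and 1 higher with arrays centred on all probe sets). On the deposited scale 76.9% were called, beside 54.9% of all genes. Kdm5b, a jumonji enzyme that removes the methyl mark of active promoters, had signals of 39.2, 119.2, 144.8 and 118.5 in tumours 1 to 4, against 364.2, 357.9 and 594 in pre-transformed cells and 403.7 and 431.8 in controls. All tumours were below all sorted arrays, with tumour 1 well under the other 3 tumours (log2 change -2.17 ± 0.41 SE, adjusted p = 0.00146). Kdm4b, which removes methyl groups of silent chromatin, had signals of 25.2, 47.3, 65.3 and 30 in tumours 1 to 4, against 154.1, 142.6 and 174.3 in pre-transformed cells and 134.8 and 152.5 in controls, 2 of its tumour arrays being dim (log2 change -2.0 ± 0.31 SE, adjusted p = 0.00051). Its paralogues moved the same way, Kdm4a by -1.14 (adjusted p = 0.000254) and Kdm4c by -1.26 (adjusted p = 0.000254). Kdm3b, another eraser of methyl marks on silent chromatin, had signals of 248.7, 254, 258.8 and 215.7 in tumours 1 to 4, against 685.1, 551 and 761.3 in pre-transformed cells and 692.5 and 641.1 in controls. The 4 tumours lay within a narrow band far below the sorted arrays (log2 change -1.44 ± 0.15 SE, adjusted p = 5.39e-05), and its paralogue Kdm3a changed by -0.96 (adjusted p = 0.00229).

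The lysine-specific demethylases of the amine oxidase type did not move together. Kdm1a (LSD1), the catalytic subunit of CoREST beside Hdac1 and Hdac2, had signals of 908.2, 989.4, 1018.7 and 1068.4 in tumours 1 to 4, against 1061.5, 1045.2 and 974.3 in pre-transformed cells and 917 and 955.5 in controls. The groups overlapped, and the difference missed the threshold (log2 change -0.05 ± 0.11 SE, adjusted p = 0.748). Kdm1b (LSD2), its paralogue, fell by 0.94 (adjusted p = 0.00152). Kdm6b (JMJD3), which erases the Polycomb methyl mark, had signals of 211.1, 402.8, 824.3 and 295 in tumours 1 to 4, against 829.5, 941.5 and 923.5 in pre-transformed cells and 812.5 and 772.5 in controls. Tumour 3 lay just under the pre-transformed arrays and above both controls, and the other 3 tumours lay well below (log2 change -1.24 ± 0.37 SE, adjusted p = 0.0165), and the call was lost without pre-transformed 2 or 3 (adjusted p up to 0.0524). Its other kept probe sets fell further (log2 changes -3.12 and -2.21, adjusted p over probe sets = 0.000149 and 0.000304).

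Kdm7a and Kdm2b were the demethylases that rose on the deposited scale. Kdm7a, which removes methyl marks of silent chromatin and was known before as Jhdm1d, had signals of 340.4, 296.8, 457.8 and 502.1 in tumours 1 to 4, against 163.6, 203.7 and 195.8 in pre-transformed cells and 140.6 and 155.7 in controls. All 4 tumours lay above all 5 sorted arrays (log2 change 1.06 ± 0.21 SE, adjusted p = 0.00173), and among the risers it was the one whose call held under all 26 alternatives run. A second probe set was at least 1.99-fold higher in tumours than in pre-transformed cells, where it was dim (adjusted p over probe sets = 0.000181), and the third gave -0.47 (adjusted p = 0.092). Kdm2b, which recruits a Polycomb complex to CpG islands, rose by 0.48 (adjusted p = 0.0254), a call lost without tumour 1 or pre-transformed 1 or 3 (adjusted p up to 0.0886) and with arrays centred on all probe sets (adjusted p = 0.422). Its other kept probe set gave 0.77 (adjusted p over probe sets = 0.00922). Kdm2a and Kdm8 did not pass (log2 changes -0.54 and -0.51, adjusted p = 0.0743 and 0.0529), although a second Kdm2a probe set fell (log2 change -1.52, adjusted p over probe sets = 0.00132).

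**Figure D2:**
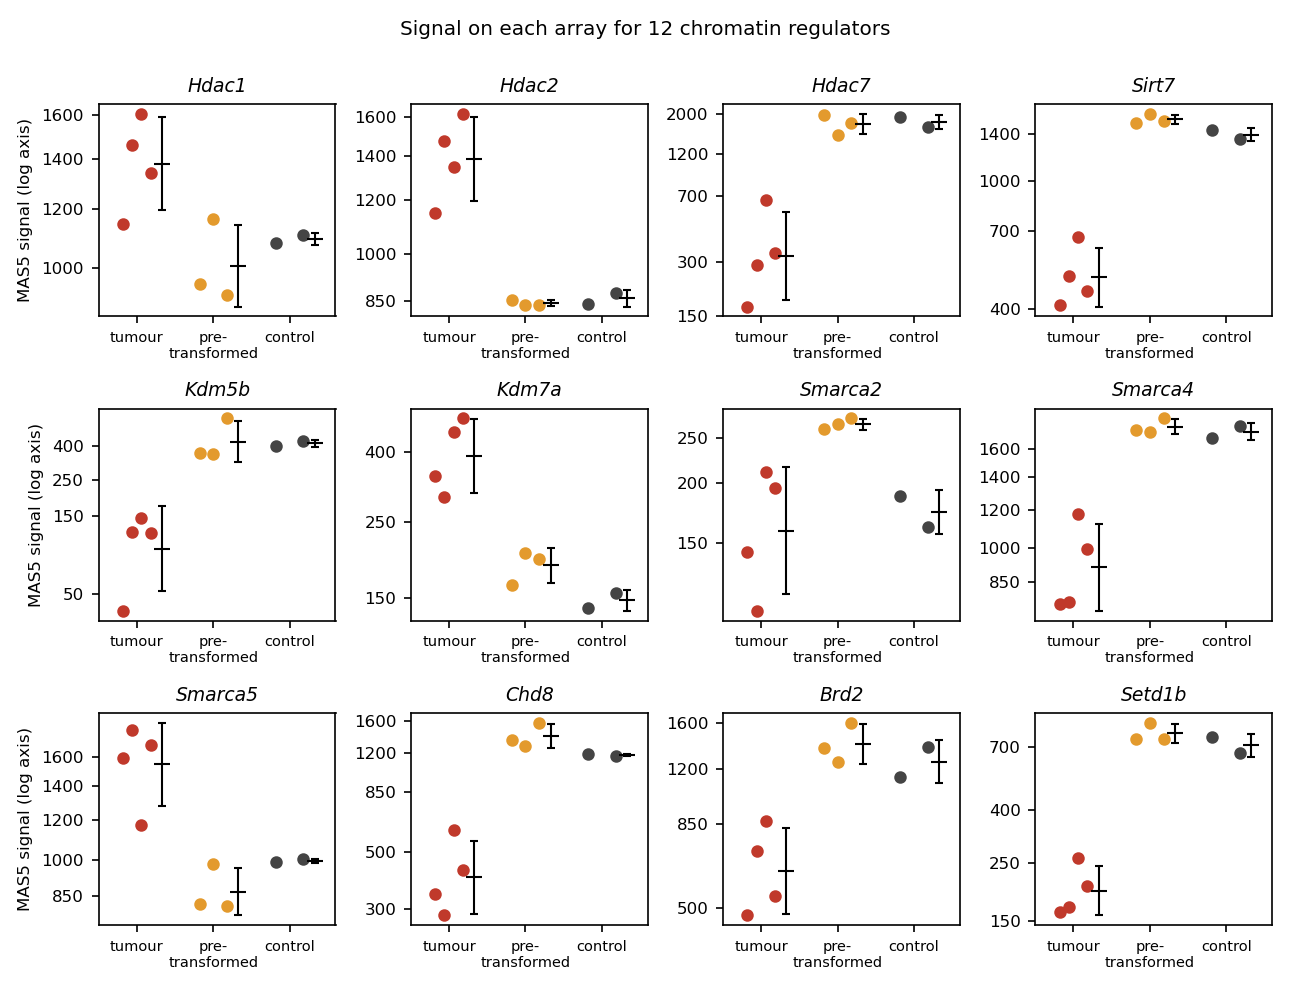
MAS5 signal (vertical log axis, a scale per panel) on each array for 12 of the genes. Points are arrays, with tumours in red, pre-transformed cells in orange and controls in grey, and the bars show the geometric mean ± SD on the log2 scale (n = 4, 3 and 2); the tumour points lie clear of all sorted points in 10 panels and overlap some of them for Smarca2 and, against one pre-transformed array, for Hdac1.

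Promoters of the members were searched for the letters of motifs bound by factors of this pathway. The motifs were CACGTG, the E-box bound by MYC among other factors, and CTTTGAT, a form of the TCF/LEF motif that β-catenin acts through, searched on both strands (ATCAAAG being the reverse of the second, and CACGTG its own reverse) in windows of 300 bases, 250 before and 50 after the start site, from RefSeq on GRCm38.p6. Windows matched 63 of the 80 members, 85 windows in all. A match or its absence describes the letters of these windows and nothing more. CACGTG was in 3 of the 85 (3.53%), beside 7.15% of 32851 windows of all genes, namely those of Hdac5, Kdm4c and Sirt1. CTTTGAT was in none of the 85, beside 3.73% of all windows. Among windows of members called higher, lower and not called in tumours against pre-transformed cells, CACGTG was in 0 of 14, 2 of 42 and 1 of 22. The windows of both fallers that hold it are shown 5′ to 3′ with the motif in capitals, as the sequences a reader would compare. That of Hdac5 is chr11:102230123-102230422 on the minus strand, where the motif begins at base 254, past the start site, and that of Kdm4c, 1 of its 2 windows, is chr4:74251629-74251928 on the plus strand, with motifs from bases 166 and 198.
Hdac5: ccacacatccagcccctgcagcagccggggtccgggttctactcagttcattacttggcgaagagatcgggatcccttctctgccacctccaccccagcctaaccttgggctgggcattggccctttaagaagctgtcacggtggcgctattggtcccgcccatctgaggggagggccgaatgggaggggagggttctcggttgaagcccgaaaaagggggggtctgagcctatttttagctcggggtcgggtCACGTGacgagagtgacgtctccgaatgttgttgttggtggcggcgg
Kdm4c: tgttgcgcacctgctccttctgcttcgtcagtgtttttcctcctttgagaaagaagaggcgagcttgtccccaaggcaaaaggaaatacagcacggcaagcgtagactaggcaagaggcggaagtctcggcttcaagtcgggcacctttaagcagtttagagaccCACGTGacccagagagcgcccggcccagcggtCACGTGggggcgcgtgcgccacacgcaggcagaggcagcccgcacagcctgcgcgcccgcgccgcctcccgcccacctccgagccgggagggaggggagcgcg

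The BET proteins Brd2 and Brd3, readers of acetylated histones, both fell in tumours, as did 31% of all genes. Brd2 had signals of 478.5, 719.5, 863.8 and 540.8 in tumours 1 to 4, against 1373.4, 1254.9 and 1607.2 in pre-transformed cells and 1144.2 and 1383.1 in controls. No tumour reached the lowest sorted array (log2 change -1.15 ± 0.21 SE, adjusted p = 0.00112). Brd3 had signals of 141.8, 178.9, 280.9 and 239.9 in tumours 1 to 4, against 418.3, 466 and 502.7 in pre-transformed cells and 469.5 and 491 in controls, again with no overlap (log2 change -1.18 ± 0.22 SE, adjusted p = 0.00158). Outside the BET family, Brd1 and Brd8, subunits of acetyltransferase complexes, did not pass (log2 changes 0.08 and -0.01, adjusted p = 0.698 and 0.97). Another Brd1 probe set, dim in tumours, was called at least 1.84-fold lower there than in pre-transformed cells (adjusted p over probe sets = 0.0196). Another Brd8 probe set fell as well (log2 change -0.95, adjusted p over probe sets = 0.0258).

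Subunits of the SWI/SNF (BAF) remodelling complexes moved in both directions, with 7 of 13 lower, 2 higher and 4 not called on the deposited scale. That is 69.2% called, beside 54.9% of all genes. Centring on all probe sets gave 8 lower and 0 higher, and centring on kept probe sets 3 lower and 3 higher. Smarca4 (BRG1), the main ATPase of the complex in thymocytes, had signals of 764.5, 772.2, 1175.2 and 994 in tumours 1 to 4, against 1754.3, 1739.7 and 1855 in pre-transformed cells and 1690.5 and 1789.3 in controls. All tumours lay below all sorted arrays, tumours 1 and 2 the furthest (log2 change -0.97 ± 0.16 SE, adjusted p = 0.000699). Smarca2 (BRM), the alternative ATPase, had signals of 143.6, 107.5, 211.4 and 195.3 in tumours 1 to 4, against 260.3, 266.5 and 274.6 in pre-transformed cells and 187.9 and 161.6 in controls. Tumours lay below pre-transformed cells and overlapped controls (log2 change -0.75 ± 0.23 SE, adjusted p = 0.0203), and this call was lost without any 1 of the pre-transformed arrays (adjusted p up to 0.0654). Its other kept probe set fell as well (log2 change -1.45, adjusted p over probe sets = 0.000424). Smarcc2 (BAF170), a scaffold subunit, had signals of 82.9, 95.3, 265.6 and 194 in tumours 1 to 4, against 451.2, 453.4 and 463.6 in pre-transformed cells and 402.3 and 413.5 in controls. All tumours were below all sorted arrays, tumour 3 the nearest (log2 change -1.68 ± 0.36 SE, adjusted p = 0.00303).

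Its paralogue Smarcc1 (BAF155) rose on its brightest probe set, with signals of 816.6, 883.7, 892.1 and 1088.7 in tumours 1 to 4, against 556.5, 710.5 and 773.2 in pre-transformed cells and 692.2 and 861.8 in controls. Its tumours lay above the pre-transformed arrays and overlapped the controls (log2 change 0.44 ± 0.16 SE, adjusted p = 0.0405). A second Smarcc1 probe set fell (log2 change -0.44, adjusted p over probe sets = 0.0264), so that the probe sets of this gene gave opposite directions. The rise was also lost without tumour 3 or 4, either control, or pre-transformed 1 or 2 (adjusted p up to 0.176). Smarcb1 (SNF5), a core subunit that is a tumour suppressor in rhabdoid tumours, had signals of 277, 338.3, 379.9 and 309.8 in tumours 1 to 4, against 228.2, 240.5 and 210.7 in pre-transformed cells and 211.5 and 250.6 in controls. Its tumours lay above all sorted arrays (log2 change 0.52 ± 0.16 SE, adjusted p = 0.0184), and the call was lost without pre-transformed 1 or 3 (adjusted p up to 0.0778). Its other kept probe set was at least 2.62-fold higher in tumours than in pre-transformed cells, where it was dim (adjusted p over probe sets = 0.000391). With arrays centred on all probe sets neither rise was called (0.26 for Smarcb1 and 0.19 for Smarcc1, adjusted p = 0.312 and 0.481).

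Of the subunits that set the subtype of the complex, Arid1a, Arid1b, Arid2 and Brd9 fell on the deposited scale. Arid1a, the large DNA-binding subunit of canonical BAF, had signals of 1157.6, 1053, 1152.4 and 1156 in tumours 1 to 4, against 1470.7, 1641.2 and 1515.7 in pre-transformed cells and 1557.5 and 1451.3 in controls, a small change with no overlap of tumours and sorted cells (log2 change -0.45 ± 0.11 SE, adjusted p = 0.00515). Its other kept probe set gave 0.44 (adjusted p over probe sets = 0.164), and with the mean of both the change was -0.0061 (adjusted p = 0.977). Arid1b, its paralogue, changed by -0.82 (adjusted p = 0.0106), and Arid2, the subunit of the PBAF form, by -0.49 (adjusted p = 0.0488), the Arid2 call being lost without tumour 1 or 2, either control, or any of the pre-transformed arrays (adjusted p up to 0.120). Brd9, which marks the noncanonical form of the complex, had signals of 234.1, 210.4, 242.6 and 250.7 in tumours 1 to 4, against 484.2, 428.2 and 451.1 in pre-transformed cells and 443.5 and 415.1 in controls. Tumours and sorted cells were both tight and well apart (log2 change -0.96 ± 0.13 SE, adjusted p = 0.000246). Brd7, Smarcd1, Smarcd2 and Smarce1 did not pass on their brightest probe sets (log2 changes 0.38, 0.04, -0.39 and -0.06, adjusted p = 0.0551, 0.903, 0.051 and 0.824). A second Smarcd2 probe set fell (log2 change -1.14, adjusted p over probe sets = 0.00158). With arrays centred on genes tested, Arid1a, Arid2 and Smarca2 were not called lower and Brd7 was called higher.

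Of the other SNF2-type ATPases, 2 of 3 rose and none fell on the deposited scale, and with arrays centred on all probe sets none rose and 1 fell. The risers on the deposited scale were 66.7% of these 3 genes, beside 23.9% of all genes. Smarca5 (SNF2H), the ISWI ATPase that spaces nucleosomes, had signals of 1591, 1807, 1174.6 and 1686.4 in tumours 1 to 4, against 817, 980.2 and 810.4 in pre-transformed cells and 989.7 and 1002.6 in controls. The 4 tumours lay above the 5 sorted arrays, tumour 3 nearest to them (log2 change 0.84 ± 0.16 SE, adjusted p = 0.00165). Its other kept probe sets were not called, and those that were not dim gave 0.19 and 0.54 (adjusted p over probe sets = 0.707 and 0.0625). Smarcad1, a remodeller linked to DNA replication and repair, had signals of 241.8, 418.5, 274.9 and 319.4 in tumours 1 to 4, against 196.1, 228 and 196.6 in pre-transformed cells and 188.1 and 177 in controls. Its tumours lay above all sorted arrays (log2 change 0.57 ± 0.20 SE, adjusted p = 0.0308), and the call was lost without tumour 2 or 4 or pre-transformed 1 or 3 (adjusted p up to 0.0973). The other kept Smarcad1 probe set gave 0.90 (adjusted p over probe sets = 0.0237). With arrays centred on all probe sets neither was called (0.58 for Smarca5 and 0.32 for Smarcad1, adjusted p = 0.058 and 0.350). Smarcal1, which anneals DNA at stalled forks, did not pass (log2 change -0.39, adjusted p = 0.0652). On their brightest probe sets, paralogues of the Smarca family were thus called in opposite directions, Smarca5 higher and Smarca2 and Smarca4 lower. However, Smarca5 was not called with centring on all probe sets, nor Smarca2 under the other 3 scalings.

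The CHD remodellers had 4 of 9 tested members lower, 2 higher and 3 not called on the deposited scale, and 5 lower and 2 higher with arrays centred on all probe sets. On the deposited scale 66.7% of these 9 genes were called, beside 54.9% of all genes, and 44.4% were lower, beside 31%. Chd8, a remodeller that binds β-catenin, had signals of 341.6, 283.4, 606 and 424 in tumours 1 to 4, against 1350.2, 1278.7 and 1571.9 in pre-transformed cells and 1186.5 and 1171 in controls. All tumours lay far below the sorted arrays (log2 change -1.81 ± 0.23 SE, adjusted p = 0.000147). Its other kept probe sets were not called. The brightest of them, which was not dim, gave -0.70 (adjusted p over probe sets = 0.131), and -0.09 against controls (adjusted p = 0.880). Chd9 had signals of 19.7, 24.6, 39.4 and 36.1 in tumours 1 to 4, against 135.4, 184.7 and 205.4 in pre-transformed cells and 189.1 and 167 in controls. It was dim on all 4 tumour arrays and at least 4.81-fold lower there than in pre-transformed cells (adjusted p = 6.5e-05). Chd6 and Chd2 also fell (log2 changes -1.16 and -0.87, adjusted p = 0.00174 and 0.000682).

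Chd7, which is mutated in CHARGE syndrome, had signals of 35.9, 35, 55.2 and 45.6 in tumours 1 to 4, against 5.1, 5.6 and 9.3 in pre-transformed cells and 9.1 and 1.5 in controls. Every tumour was above every sorted array, and the gene was called higher (adjusted p = 0.00322), but the sorted arrays were all dim and the tumours hardly above that level, so that no fold is given. With a common floor for dim signals the change was 0.08 (adjusted p = 0.460). Chd1l, a PARP-activated remodeller of DNA repair, rose by 0.79 (adjusted p = 0.00124), with signals of 598.5, 622.3, 570.8 and 762 in tumours 1 to 4, against 331.4, 376.2 and 396.1 in pre-transformed cells and 412.7 and 444.6 in controls. Chd4, the ATPase of the NuRD complex, had signals of 242.9, 439.9, 607 and 270.1 in tumours 1 to 4, against 576.9, 554.9 and 567.3 in pre-transformed cells and 738.5 and 638.5 in controls on its brightest probe set. Tumour 3 lay above the pre-transformed arrays and the other tumours below them, and the change missed the threshold (log2 change -0.64, adjusted p = 0.0804). Both other kept probe sets of Chd4 fell. The first had group means of 43.6 in tumours, 683 in pre-transformed cells and 731 in controls (log2 change -3.97, adjusted p over probe sets = 6.77e-06). The second had 16.4 in tumours, where it was dim, 249 in pre-transformed cells and 329 in controls, at least 6.95-fold lower in tumours than in pre-transformed cells (adjusted p over probe sets = 0.000350). Chd3, another NuRD ATPase, did not pass (log2 change -0.51, adjusted p = 0.384). Chd1, which binds the methyl mark of active promoters, did not pass on its brightest probe set (log2 change -0.34, adjusted p = 0.327), while of its other probe sets 1 rose (0.58) and 1 fell (-1.08).

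The ARID proteins outside SWI/SNF had 4 of 6 members lower (66.7%, beside 31% of all genes) and none higher. Arid3b, a DNA-binding protein of the Bright family, had signals of 20, 23.5, 74.5 and 30.3 in tumours 1 to 4, against 229.9, 231.5 and 218.2 in pre-transformed cells and 182 and 112.8 in controls. Of the tumours, 3 were dim and tumour 3 was not, and the gene was at least 5.42-fold lower in tumours than in pre-transformed cells (adjusted p = 0.000309). Arid4a and Arid4b, subunits of Sin3 deacetylase complexes, and Arid5a, an RNA-binding protein, fell by 1.24, 1.09 and 1.24 on the log2 scale (adjusted p = 0.000953, 0.00232 and 0.00319). Of the 5 kept Arid4b probe sets, 4 fell and 1 rose, the riser being dim in pre-transformed cells (at least 1.47-fold). Arid3a and Arid5b did not pass (log2 changes -0.34 and -0.26, adjusted p = 0.248 and 0.45).

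The SETD proteins, most of them methyltransferases, had 4 of 10 members lower, 1 higher and 5 not called on the deposited scale (50% called, beside 54.9% of all genes). With arrays centred on all probe sets 6 were lower, and with centring on kept probe sets 3. Setd1b, a catalytic subunit of the COMPASS enzymes that write the promoter methyl mark which Kdm5b removes, had signals of 162.4, 168.8, 261.1 and 204.2 in tumours 1 to 4, against 754.8, 869.2 and 754.3 in pre-transformed cells and 763.4 and 662.8 in controls. Tumours and sorted cells were far apart (log2 change -2.02 ± 0.18 SE, adjusted p = 2.7e-05), and its paralogue Setd1a changed by -0.72 (adjusted p = 0.0291), a call lost without tumour 1 or pre-transformed 1 or 3 (adjusted p up to 0.127). Setd5 had signals of 142, 133.9, 182.6 and 136.5 in tumours 1 to 4, against 493.4, 480.9 and 506.7 in pre-transformed cells and 427.3 and 468.5 in controls, with no overlap of tumours and sorted cells (log2 change -1.74 ± 0.15 SE, adjusted p = 2.43e-05). A second Setd5 probe set, not dim, gave 0.38 and was not called (adjusted p over probe sets = 0.37). Setd7, a methyltransferase with many non-histone substrates, had signals of 727, 668, 598.4 and 605.2 in tumours 1 to 4, against 1511.8, 1536.9 and 1581.5 in pre-transformed cells and 1529.2 and 1507.2 in controls. The 5 sorted arrays were nearly level, and the 4 tumours lay close together below them (log2 change -1.25 ± 0.11 SE, adjusted p = 2.78e-05). Setd6, which methylates the NF-κB subunit RelA, had signals of 103.1, 96.5, 139.4 and 162 in tumours 1 to 4, against 61.2, 70.7 and 64.8 in pre-transformed cells and 71.8 and 64.2 in controls. Its tumours lay above all sorted arrays (log2 change 0.90 ± 0.22 SE, adjusted p = 0.00672). Its second kept probe set gave -0.06 (adjusted p over probe sets = 0.867), and with the mean of both the rise was not called (log2 change 0.42, adjusted p = 0.165). Setdb1, which silences retroviral elements, had signals of 193.2, 222.5, 198.4 and 218.2 in tumours 1 to 4, against 185.8, 187.5 and 196.1 in pre-transformed cells and 158.7 and 169.7 in controls, with overlap of tumours and pre-transformed cells (log2 change 0.13, adjusted p = 0.455). Setd2, which writes the methyl mark of transcribed gene bodies, and Setd3, Setd4 and Setdb2 did not pass (log2 changes -0.39, -1.21, -0.78 and 0.01, adjusted p = 0.0578, 0.168, 0.127 and 0.981). A second Setd3 probe set fell (log2 change -0.47, adjusted p over probe sets = 0.0231).

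**Figure D3:**
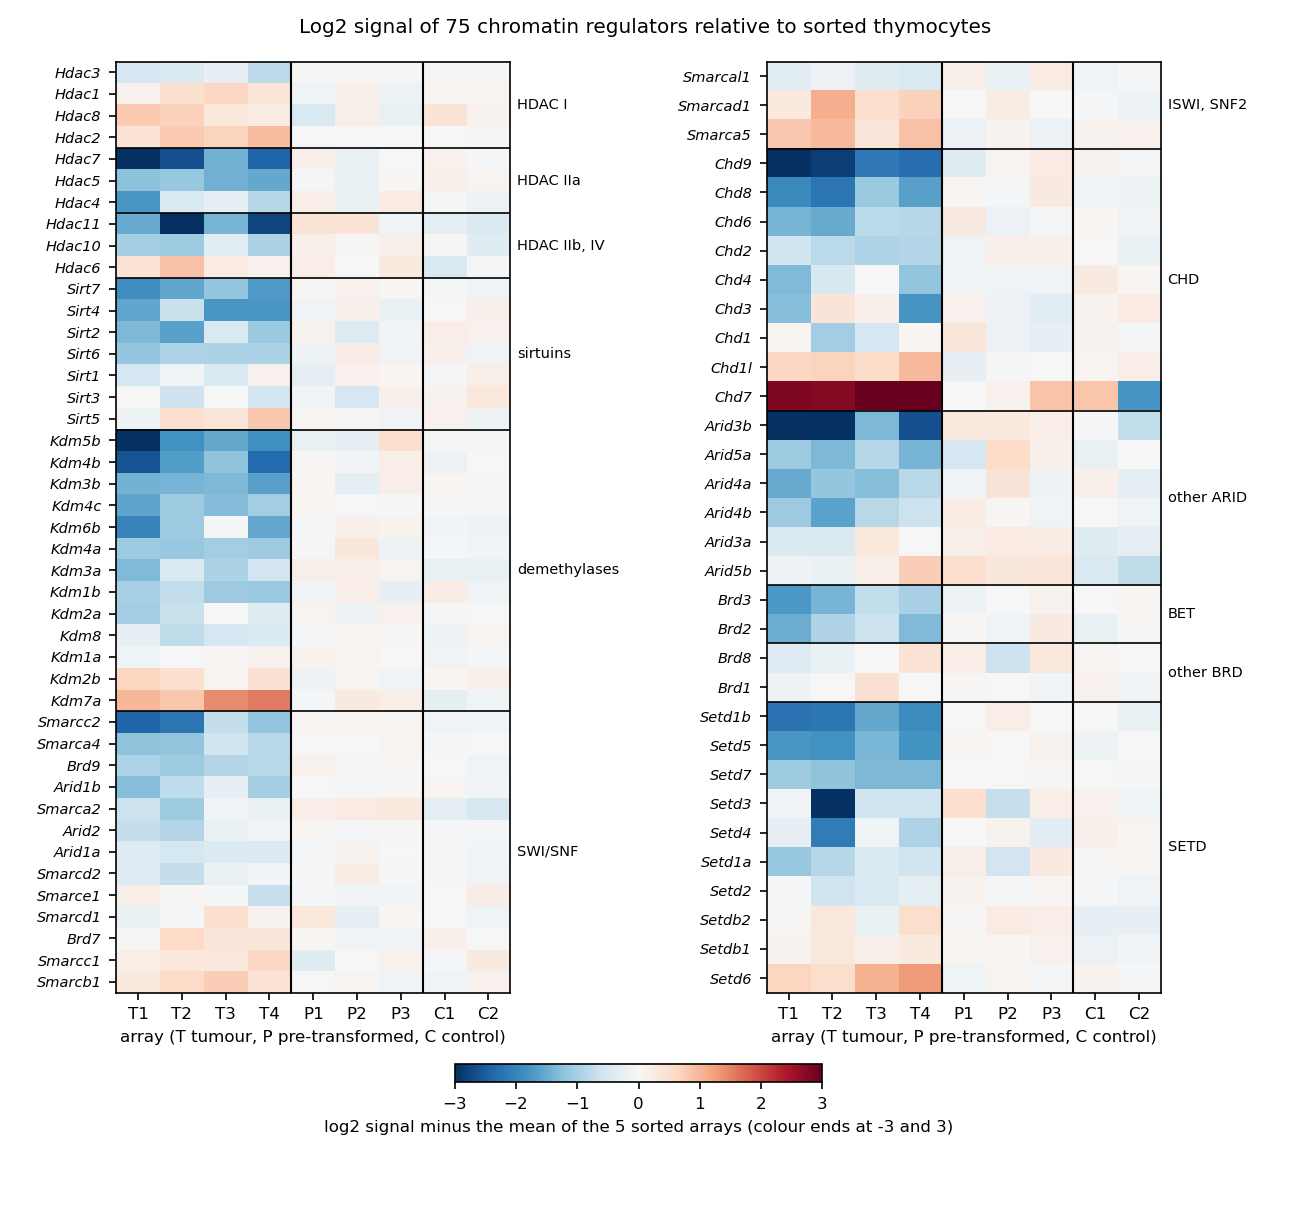
Log2 signal of the 75 tested genes (rows, by role and then by change) on each array (columns), as the difference from the mean of the 5 sorted arrays, in colour from -3 (blue) to 3 (red). Tumour columns T1 to T4 hold most of the colour, with Hdac7, Chd9, Arid3b and Setd1b blue and Kdm7a and Chd7 red in each, and tumour 3 is often paler than tumour 1.

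The tumours differed among themselves more than sorted cells did. The median SD of log2 signal over the 75 members was 0.32 in tumours (n = 4), 0.14 in pre-transformed cells (n = 3) and 0.09 in controls (n = 2), beside 0.42, 0.19 and 0.12 over all genes tested. Tumour 3 had the highest tumour signal for 35 members (46.7%, beside 32.1% of all genes), and tumour 1 the lowest for 34 (45.3%, beside 29%). The members' median difference from the pre-transformed mean was -0.90, -0.76, -0.39 and -0.68 in tumours 1 to 4, where all genes gave -0.18, -0.16, -0.05 and -0.06. Hdac7, Smarcc2, Kdm6b and Chd4 were among the genes with a wide range over tumours, while Kdm4a was the tightest, at 122.6 to 130.7 (SD 0.04). In a bulk sample, fewer cells that express a gene and less RNA per cell cannot be told apart.

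Where a member had several probe sets, they did not always move alike. Of 44 members with 2 or more kept probe sets (155 probe sets in all over the members), 27 had all of them on the same side of 0 in tumours against pre-transformed cells, and 12 had all called the same way. In 3 members (Arid4b, Chd1 and Smarcc1) probe sets were called in both directions. Setdb1, not called on its brightest probe set, was called higher on a probe set with group means of 37.2 in tumours and 5.48 in pre-transformed cells (adjusted p over probe sets = 0.0076), too dim for a fold, and Setd4 fell on another (-2.63, adjusted p = 0.000819). With the mean of the kept probe sets of each gene, 7 of the 50 calls were lost (Arid1a, Arid2, Chd6, Hdac2, Hdac11, Setd6 and Smarcc1) and 6 members were called that had not been (Brd1, Chd4, Kdm8, Setd4, Setdb1 and Smarcd2). Which transcript form each probe set reads was not analysed here.

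**Figure D4:**
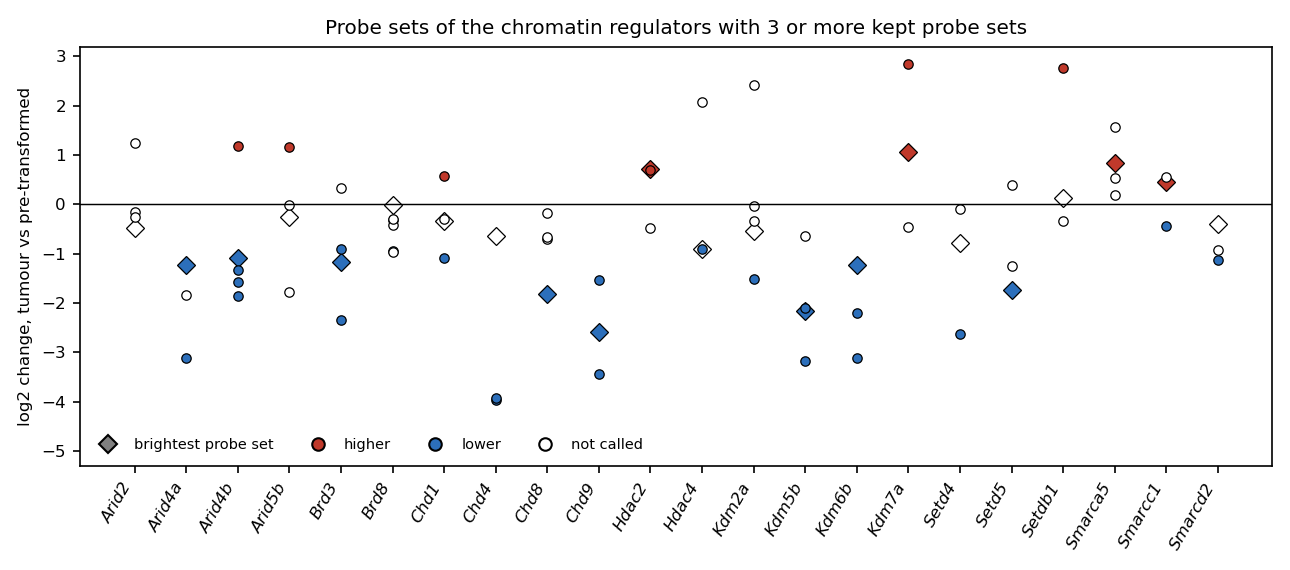
Log2 change in tumours against pre-transformed cells (vertical axis) for every kept probe set of the 22 genes with 3 or more. Diamonds are the brightest probe set of a gene and circles the others, all as fitted, also where a group was dim, and filled red (higher) or blue (lower) where the adjusted p over all kept probe sets was under 0.05; Arid4b, Chd1 and Smarcc1 hold both colours, and the Chd4 circles lie near -4 while its diamond is open.

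Against controls, 8 members rose and 34 fell in tumours, 56% of the 75 beside 45.7% of all genes. The fallers were 45.3% of members, beside 25.2% of all genes, and the risers 10.7%, beside 20.5%. Tumour and control arrays did not overlap for 54 members, and for 60.5% of all genes, and the median log2 change was -0.67 over members and -0.08 over all genes. This comparison shares its tumour arrays with the one against pre-transformed cells, so its values are no separate evidence. Hdac7 changed by -2.49 (adjusted p = 0.00113), Sirt7 by -1.47 (adjusted p = 0.000301), Kdm3b by -1.45 (adjusted p = 0.000213), Kdm5b by -2.14 (adjusted p = 0.00444), Setd1b by -1.86 (adjusted p = 0.000162) and Setd7 by -1.23 (adjusted p = 0.000131). Kdm7a was higher by 1.40 (adjusted p = 0.00117), and Hdac2 by 0.69 (adjusted p = 0.0047), the Hdac2 call being lost without control 1 (adjusted p = 0.0525). Hdac1, Hdac3, Kdm6b and Smarca2 were not called (log2 changes 0.33, -0.44, -1.06 and -0.13, adjusted p = 0.122, 0.0597, 0.0604 and 0.7). Of the 42 calls, 18 held with each array left out, and the other 24 were lost without control 1 or control 2: without control 1, 2 members were higher and 17 lower (25.3%, beside 22.2% of all genes), and without control 2, 3 were higher and 23 lower (34.7%, beside 27.2%). Without control 1 the share of members called was thus near that of all genes, as it was with a 2-fold minimum (33.3%, beside 32%). Of the called members 10.5% were higher without control 1, beside 45.5% of all genes called. With the 2-fold minimum these shares were 8% and 43.8%. By scaling, 19% of called members were higher on the deposited scale (44.8% of all genes called), 4.26% with centring on all probe sets (23.3%), 27% with centring on kept probe sets (55.7%) and 39.5% with centring on genes tested (60.1%).

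Before transformation few differences from controls were called. Of the 75 members 1 rose and none fell in pre-transformed against control cells (limma), 1.33% beside 1.63% of all genes called (1.11% higher and 0.524% lower). An unadjusted limma p under 0.05 was found for 8 members, 7 of them higher and 1 lower. Of all 11644 genes 2046 had one, 1130 of them higher and 916 lower. The median change was 0.04 over the members and 0.02 over all genes, with a fitted range of -0.42 to 1.00, the upper end being Arid5b against dim controls, and the groups did not overlap for 25 members (36.3% of all genes). The member called was Smarca2, whose 3 pre-transformed arrays (260.3, 266.5 and 274.6) lay above both controls (187.9 and 161.6; log2 change 0.62 ± 0.12 SE, adjusted p = 0.0495). The call did not hold without any 1 of the 5 arrays (log2 change 0.51 to 0.72, adjusted p = 0.0522 to 0.399), nor with all 9 arrays in the fit (adjusted p = 0.9996). Arid5b, which lies at the edge of the threshold, had signals of 57.1, 51.6 and 52.1 in pre-transformed cells, against 29.7 and 24.1 in controls, where it was dim (at least 1.31-fold higher, adjusted p = 0.0606). Of the members described above, log2 changes between pre-transformed and control cells were -0.04 for Hdac7, -0.02 for Hdac2, 0.16 for Sirt7, 0.03 for Kdm5b, 0.04 for Smarca4 and 0.15 for Setd1b, none past the threshold.

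Other genes of chromatin regulation, listed by role, were also called in both directions. Of 80 listed, 75 were named and 74 tested: in tumours against pre-transformed cells 20 rose, 31 fell and 23 were not called, with a median log2 change of -0.33. Of all genes tested 23.9% rose and 31% fell, and no list was tested as a set. Of 12 histone acetyltransferases 4 rose and 6 fell. Hat1, which acetylates new histones, rose by 1.44 (adjusted p = 0.000376), and the coactivators Ep300 and Crebbp, which lie opposite the deacetylases, fell by 1.04 and 1.22 on the log2 scale (adjusted p = 0.023 and 0.000638). Of 19 other methyltransferases 6 rose and 9 fell, with the arginine methyltransferases Prmt5 (log2 change 2.40, adjusted p = 2.43e-05) and Prmt1 (log2 change 1.55, adjusted p = 4.39e-05) higher and Kmt2e (log2 change -2.41, adjusted p = 8.5e-05) lower. Of 17 partners of deacetylases 2 rose and 7 fell. The histone chaperones Rbbp7 and Rbbp4, which sit in complexes with Hdac1 and Hdac2, were the risers (log2 changes 1.79 and 0.64, adjusted p = 1.89e-05 and 0.00156), and Sin3b fell (log2 change -1.42, adjusted p = 0.000293). Of 26 partners of remodellers 8 rose and 9 fell. Hells, a remodeller needed for DNA methylation, Ruvbl1 and Ruvbl2, partners of INO80-type remodellers, and the shared actin-like subunit Actl6a rose (log2 changes 2.86, 1.57, 1.91 and 1.65, adjusted p = 2e-05, 5.37e-05, 1.73e-05 and 8.5e-05), while Baz2a, a partner of Smarca5, fell (log2 change -2.22, adjusted p = 3.78e-05). Against controls 19 rose and 29 fell in tumours, beside 20.5% and 25.2% of all genes. In pre-transformed against control cells 1 rose (Kmt2a, 0.64) and 1 fell (Sap30, -0.67), beside 1.11% and 0.524% of all genes.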

How the data were processed

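RNA of 9 mice was measured on Affymetrix arrays, 1 array per mouse. The deposited values are linear intensities of each probe set, made by the authors with MAS5 per the submitters' processing notes (version not given in the sources used here). After trimming 2% of probe sets at either end, every array averaged 100, so values are relative to the array and a shift of all genes cannot be seen. Precision is limited by how many arrays there are.

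Of 45101 probe sets, 34945 carried 1 gene symbol, 932 several, 9160 none, and 64 were controls. Intensities were taken to log2 with 0 set to 0.1. Probe sets at or above their array's median on at least 2 arrays were kept, with the highest mean for each gene. limma (3.58.1, R 4.3.3; lmFit and eBayes with trend) was fitted on all 9 arrays for tumour comparisons and on the 5 sorted arrays for pre-transformed against control cells, with Benjamini-Hochberg adjustment over 11644 genes and a call at an adjusted p under 0.05. Probe sets of a gene were also fitted singly, adjusted over all kept probe sets. The fit was tested on simulated data. Figures used Python 3.11.15 and matplotlib 3.10.9.

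Genes were named by role: the 3 largest called changes in tumours against pre-transformed cells, all calls in pre-transformed against control cells, paralogues called in opposite directions, and a set of well-known enzymes. The rule gave 43 of the 75 tested members, and others were named after their values were seen. Members and lists, marker lists included, were chosen with earlier results of these data known. A few genes of the Kdm family are not reported here. Alternatives covered the filter, scaling, offset, floor, choice of probe set, variance model, the arrays fitted and the omission of single arrays.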

Additional observations from a re-analysis of the deposited data

Results flagged for a closer look

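For 5 of the 75 tested members, 1 tumour array stood apart from the other 3 on the log2 scale, its gap to the nearest of them filling most of the range of the group; chance alone does this in about 1 in 20 groups. Of the 43 members named by rule, 3 were among them. For Arid1a, tumour 2 was the low array (1157.6, 1053, 1152.4 and 1156 in tumours 1 to 4), with a gap of 0.952 of the range, although the range was small. For Setd3, a histidine methyltransferase of actin, tumour 2 was again low (464.1, 43.3, 330.2 and 331.8), with a gap of 0.856 of the range. For Kdm5b tumour 1 was low (39.2, 119.2, 144.8 and 118.5), with a gap of 0.847. For Sirt6 tumour 1 was low (30.2, 35.6, 35 and 34.7), with a gap of 0.844, among signals that were dim or nearly so. For Hdac10 tumour 3 was high (110.4, 105.2, 171.8 and 113.8), with a gap of 0.84.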

How the results depend on the processing

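Of the 50 members called in tumours against pre-transformed cells, 22 kept their call and direction under every alternative run, as did 13 of the 42 called against controls and none of the 1 called in pre-transformed against control cells. No such counts are given here for all genes. Centring on kept probe sets and on genes tested was chosen after seeing the data. Where a result changed, the cause was not tested. The 1 member higher in pre-transformed cells became 0 with no filter, quantile normalization, each of the 3 centrings, an offset of 16, a common floor, the mean of probe sets, no cross-hybridising probe sets, no trend, a 2-fold minimum, the replicate block, a fit on all 9 arrays, and the omission of any single array (0 to 0). It became 2 with a stricter filter, robust variance or array weights. The 1 other chromatin gene higher there became 0 with centring on all probe sets or the mean of probe sets. In tumours against pre-transformed cells, centring on all probe sets gave 4 members and 13 other chromatin genes higher, and a 2-fold minimum 2 members higher and 25 lower (36% called, beside 37.1% of all genes). With single arrays left out, 6 to 12 were higher (6 without pre-transformed 1, 7 without pre-transformed 3) and 34 to 41 lower. Against controls, centring on all probe sets gave 2 members and 9 other chromatin genes higher in tumours, centring on genes tested 17 members, a 2-fold minimum 2, and only the groups compared in the fit 5. There 33.3% of members were called with the 2-fold minimum, beside 32% of all genes, and 56.8% with the stricter filter, beside 53.8%. With single arrays left out 2 to 10 were higher and 17 to 38 lower, the lowest without control 1.

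With the mean of all probe sets of a gene, directions turned for Arid2 (0.082, adjusted p = 0.709) and Brd1 (-0.55, adjusted p = 0.048) in tumours against pre-transformed cells, and for Arid1a (0.11, adjusted p = 0.647) and Brd1 (-0.71, adjusted p = 0.0348) against controls. Replicate numbers name different mice, and deviations of arrays with the same number correlated at -0.02 to 0.08, so the samples share only a number. The replicate block gave 10 higher and 39 lower in tumours against pre-transformed cells, 5 and 33 against controls, and 0 in pre-transformed against control cells. With 2 control arrays, and sorted cells labelled by another protocol than tumours, small changes are the least certain, and dim signals give only bounds.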
